A study of Mus musculus with 8 samples.

Results

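A set of 10 genes of the choroid plexus epithelium was followed in the E15.5 mouse hippocampus after intrauterine growth restriction (IUGR). They were the 10 rows, of 16397 in the count table, named Ttr, Enpp2, Sostdc1, Kl, Prlr, Clic6, Kcnj13, Kcne2, Slc4a5 and Aqp1, and they were selected by name. Hippocampal RNA came from C57Bl/6J offspring of both sexes. In 4 IUGR samples (T1-1, T1-3, T1-4 and T1-5) the dam was made hypertensive with a micro-osmotic pump that released U-46619, a thromboxane A2 analog, from E12.5. In 4 sham samples (S1-4, S1-6, S3-1 and S3-4) the pump held vehicle and was implanted on the same day. No transgene or gene deletion was used, and the labels give neither the litter nor the sex of a sample. All IUGR samples share the name prefix T1 and the sham samples carry S1 or S3; what the prefixes stand for is not stated, and whether the samples of a prefix came from 1 dam is not known, so the p values below measure the spread between these samples, which may be technical in part.

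The choroid plexus is a folded sheet of epithelium over a core of vessels that hangs in each ventricle and secretes cerebrospinal fluid. In the telencephalon it grows from the medial edge of the cortex, next to the cortical hem and the hippocampal primordium. Its epithelial cells pump sodium, chloride and bicarbonate across the apical membrane, water follows through aquaporin channels, and the same cells release carrier proteins and growth factor regulators into the fluid. Of the 10 genes, Ttr, Enpp2 and Sostdc1 encode secreted proteins, Kl and Prlr encode receptor proteins of the membrane, and the rest encode channels or transporters.

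All 8 libraries carry the same sequencing run in their labels, and the IUGR libraries held 12919546 to 16672463 counts and the sham libraries 11212632 to 15405748. Values are given as CPM, the deposited counts scaled to 1000000 counts per library with library sizes adjusted by the TMM method. All 11 markers of the hippocampal primordium were measured in both groups, with a summed level of 1273 to 1615 CPM in the IUGR samples and 1285 to 2054 CPM in the sham samples. Zbtb20, a regulator of hippocampal identity, had a mean of 402 CPM in IUGR and 507 CPM in sham, and Sox2, Lhx2 and Eomes, which mark stem cells and intermediate progenitors of the cortex, had adjusted p = 1.00, 0.916 and 1.00 in edgeR. The mitochondrial ribosomal RNA mt-Rnr1 took between 1.29% and 2.53% of the counts in 4 libraries (T1-3, T1-4, S1-6 and S3-4) and between 0.0176% and 0.0872% in the other four. Xist, which is transcribed from the inactive X chromosome, was at 935 to 1573 CPM in T1-3, T1-4, T1-5 and S1-6 and at 2.09 to 5.77 CPM in the other 4. Ddx3y, a gene of the Y chromosome, was at 0.166 to 0.751 CPM in the former and at 114 to 221 CPM in the latter. By both genes, T1-1 was the only male IUGR sample and S1-6 the only female sham sample, so sex was uneven between the groups.

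The 10 genes lie on 7 chromosomes. Positions here are those of GENCODE M21 on GRCm38 and cover the whole gene with exons and introns. The channel and transporter genes are Clic6 at chr16:92485736-92541243 on the plus strand, Kcnj13 at chr1:87386363-87394729 on the minus strand, Kcne2 at chr16:92292389-92298129 on the plus strand, Slc4a5 at chr6:83219828-83304945 on the plus strand and Aqp1 at chr6:55336432-55348555 on the plus strand. Clic6 overlaps 2410124H12Rik on the same strand without shared exons, and that gene had at most 26 counts in a library. Exons of Prlr overlap those of Gm21973 on the same strand, and exons of Enpp2 overlap those of Gm26684 on the other strand. Neither Gm21973 nor Gm26684 has a row in the count table.

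The potassium channel gene Kcnj13, the channel subunit gene Kcne2 and the water channel gene Aqp1 are shown by the 250 bases before the RefSeq start, because their levels were low in the same samples, as described below. The sequences are from RefSeq on GRCm38.p6, written 5′ to 3′ on the strand of the gene, and capitals mark a TATA box. They come from chr1:87394730-87394979 (Kcnj13, minus strand), chr16:92292139-92292388 (Kcne2, plus strand) and chr6:55336049-55336298 (Aqp1, plus strand).
Kcnj13: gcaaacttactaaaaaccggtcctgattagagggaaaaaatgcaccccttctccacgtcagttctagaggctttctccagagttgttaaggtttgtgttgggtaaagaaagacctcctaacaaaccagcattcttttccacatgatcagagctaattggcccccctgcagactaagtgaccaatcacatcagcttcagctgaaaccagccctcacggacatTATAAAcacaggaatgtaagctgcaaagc
Kcne2: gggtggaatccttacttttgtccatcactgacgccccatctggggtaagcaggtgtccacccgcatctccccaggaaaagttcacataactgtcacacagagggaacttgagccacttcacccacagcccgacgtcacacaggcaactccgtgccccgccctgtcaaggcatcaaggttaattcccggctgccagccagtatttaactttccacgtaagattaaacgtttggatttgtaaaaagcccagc
Aqp1: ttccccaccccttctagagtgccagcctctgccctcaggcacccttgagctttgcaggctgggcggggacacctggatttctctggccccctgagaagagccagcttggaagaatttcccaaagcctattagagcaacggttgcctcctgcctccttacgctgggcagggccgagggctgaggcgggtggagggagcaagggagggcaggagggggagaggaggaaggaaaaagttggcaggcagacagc

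Windows of this length were found for 6 of the 10 genes, with 9 windows in all. Chromosome 18, where Ttr lies, was left out when windows of the 10 genes were taken. They were searched on both strands for TAATCC (the core motif of OTX factors), GTAAACA (the core motif of FOX factors) and TATAAA (the TATA box), which do not overlap one another. TAATCC was in 0 of 9 windows, against 6.25% of 32851 RefSeq windows of the same length. GTAAACA was in 1 window, a start of Prlr, against 3.17% of all windows. TATAAA was in 2 windows, against 12.4% of all windows. In Kcnj13 it began 29 bases before the start on the strand of the gene, and in Slc4a5 it lay on the other strand, 127 bases before the start. The GC content of the printed stretches was 45.2% in Kcnj13, 52.4% in Kcne2 and 62.0% in Aqp1, with a median of 52.4% over all windows. These matches describe the letters only.

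The first question was whether IUGR altered the level of the secreted proteins' genes. Ttr encodes transthyretin, the carrier of thyroxine and of the retinol-binding protein in cerebrospinal fluid, and it lies at chr18:20665280-20674321 on the plus strand. In the sham samples, Ttr was at 10711 CPM in S1-4, 6830.4 CPM in S1-6, 9862 CPM in S3-1 and 4490.2 CPM in S3-4. In the IUGR samples, it was at 25.1 CPM (T1-1), 954 CPM (T1-3), 10.1 CPM (T1-4) and 586 CPM (T1-5). Every IUGR sample was below every sham sample, which held for 5.06% of the 13710 genes tested across the table, and the mean was 7973 ± 2858 CPM in sham against 394 ± 460 CPM in IUGR (SD, n = 4 each), a 20.3-fold difference. Ttr made up between 0.414% and 1.05% of all counts in sham libraries and between 0.000937% and 0.0943% in IUGR libraries. In RNA from dissected tissue, fewer cells of a type in the piece taken, for whatever reason, and less RNA per cell cannot be told apart. The amount of choroid plexus in each piece was not measured. This holds for each gene below.

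Enpp2 encodes autotaxin, the secreted enzyme that makes lysophosphatidic acid, and lies at chr15:54838901-54952892 on the minus strand. Its level was 234, 167, 202 and 141 CPM in sham samples S1-4, S1-6, S3-1 and S3-4, and 16.6, 147, 12.8 and 82.9 CPM in IUGR samples T1-1, T1-3, T1-4 and T1-5. Sample T1-3 was above the lowest sham sample, so the groups overlapped. Sostdc1, a secreted antagonist of BMP and Wnt signals, lies at chr12:36314139-36318452 on the plus strand. It was at 64.4, 52.6, 32.0 and 46.4 CPM in the sham samples and at 0.962, 11.3, 0.499 and 14.6 CPM in the IUGR samples, in the same order. All 4 IUGR samples were below all 4 sham samples. The sham mean was 2.88 times the IUGR mean for Enpp2 and 7.12 times for Sostdc1.

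The receptor genes were at lower levels. Kl encodes alpha-klotho, a membrane protein that makes FGF receptors responsive to FGF23 and can be shed into the fluid, and it lies at chr5:150952607-150993817 on the plus strand. Kl was at 3.92, 2.91, 1.70 and 3.24 CPM in sham samples S1-4, S1-6, S3-1 and S3-4 and at 0.740, 1.76, 0.0832 and 1.65 CPM in IUGR samples T1-1, T1-3, T1-4 and T1-5. T1-3 was just above S3-1, so the groups overlapped, and the value in T1-4 rests on 1 count, which is 2.83% of the sham mean with an exact Poisson 95% interval of 0.0716% to 15.8% that covers counting error only. Prlr encodes the prolactin receptor, which signals through JAK2 and STAT5, and lies at chr15:10177238-10349180 on the plus strand. Its mean count of 5.88 was below the minimum of 10 for testing, and its groups overlapped widely, from 0.0704 to 1.64 CPM in sham and from 0.222 to 0.424 CPM in IUGR. A change of Prlr was not detectable at these counts, and how reads in exons shared with Gm21973 were counted is not given.

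**Figure D1:**
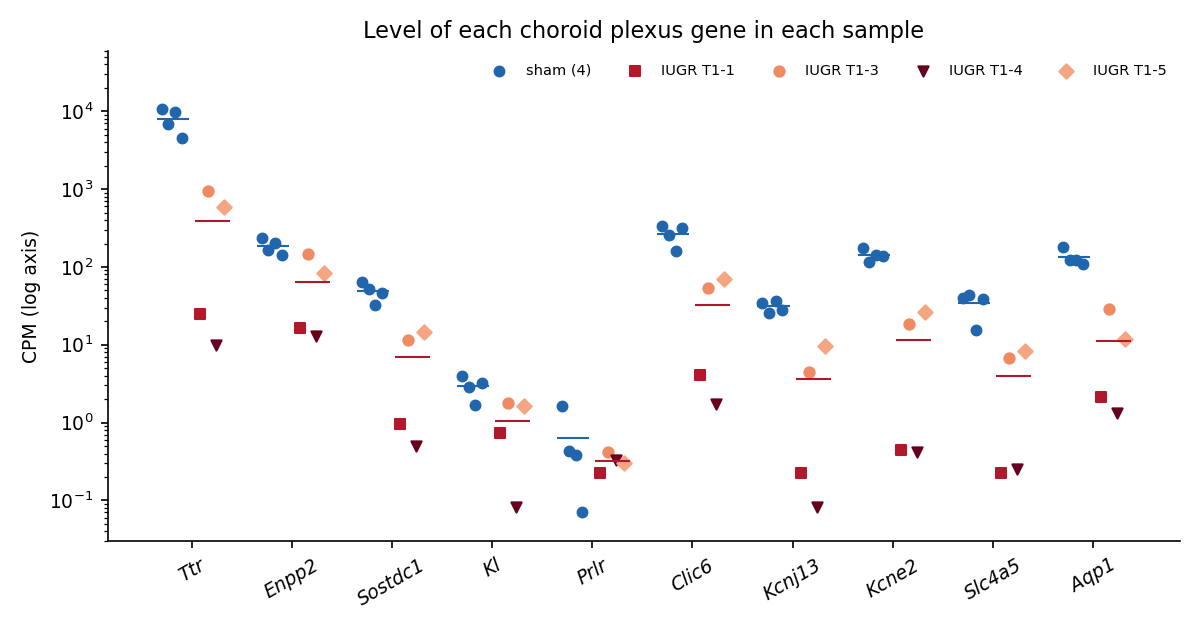
Level of the 10 genes in each sample, in CPM on a log axis, with the 4 sham samples as blue circles and the 4 IUGR samples as red and orange symbols; short lines are group means. The IUGR samples T1-1 and T1-4 lie lowest for every gene but Prlr, and T1-3 and T1-5 lie between them and the sham samples for 7 of the 10 genes.

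All 5 channel and transporter genes were lower in every IUGR sample than in every sham sample (5 of 5, against the same 5.06% of all tested genes). Clic6 belongs to the family of intracellular chloride channel proteins. It was at 338, 255, 162 and 315 CPM in sham samples S1-4, S1-6, S3-1 and S3-4, and at 4.14, 54.2, 1.75 and 70.4 CPM in IUGR samples T1-1, T1-3, T1-4 and T1-5. Aqp1, the apical water channel, was at 183, 123, 124 and 108 CPM in the sham samples and at 2.14, 29.0, 1.33 and 12.01 CPM in the IUGR samples. For both genes T1-1 and T1-4 were the lowest, and the sham mean was 8.20 times the IUGR mean for Clic6 and 12.1 times for Aqp1.

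Kcnj13 encodes Kir7.1, an inward rectifier that returns potassium across the apical membrane. Kcnj13 was at 34.7, 25.4, 36.6 and 28.2 CPM in the sham samples and at 0.222, 4.43, 0.0832 and 9.68 CPM in the IUGR samples. The lowest values rest on 3 counts in T1-1 and 1 count in T1-4, which are 0.711% (exact Poisson 95% interval 0.147% to 2.08%) and 0.266% (0.00675% to 1.48%) of the sham mean. Kcnj13 lies within Gigyf2, a gene on the other strand with overlapping exons, and the strand setting of the counting is not given in the sources used here. Gigyf2 had between 1536 and 2404 counts in each of the 8 libraries, and was at 146 CPM in T1-1 and 157 CPM in T1-4.

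Kcne2 encodes a small subunit that joins the potassium channels KCNQ1 and Kv1.3. Kcne2 was at 173, 116, 143 and 137 CPM in sham samples S1-4, S1-6, S3-1 and S3-4 and at 0.444, 18.4, 0.416 and 26.3 CPM in IUGR samples T1-1, T1-3, T1-4 and T1-5. The 2 lowest samples were at 0.312% and 0.293% of the sham mean, on 6 and 5 counts. Slc4a5 encodes the electrogenic sodium bicarbonate cotransporter NBCe2 of the apical membrane. Its sham values were 40.1, 43.8, 15.6 and 38.6 CPM, and its IUGR values were 0.222, 6.79, 0.250 and 8.41 CPM. T1-1 and T1-4 had 3 counts each, or 0.643% (exact Poisson 95% interval 0.133% to 1.88%) and 0.723% (0.149% to 2.11%) of the sham mean, and S3-1 was well below the other sham samples.

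Between genes, levels are compared per kilobase of exon. In the sham samples, the mean CPM per kilobase was 6723 ± 2410 for Ttr, 80.4 for Kcne2, 68.4 for Clic6, 51.2 for Aqp1, 32.2 for Enpp2, 27.4 for Sostdc1, 24.6 for Kcnj13, 5.95 for Slc4a5, 0.315 for Kl and 0.0412 for Prlr. Ttr made up 84.6% to 93.2% of the summed CPM of the 10 genes in the sham samples and 36.4% to 77.8% in the IUGR samples.

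Counts were then compared across all 13710 protein-coding genes whose mean count reached 10, which included 9 of the 10 genes. In edgeR's quasi-likelihood test, a call needed an adjusted p no higher than 0.05 and a 2-fold difference or more. Of all tested genes, 1.36% were called lower in IUGR and 0.102% were called higher. None of the 9 tested genes was called by edgeR (0 of 9), although 9 of 9 had an unadjusted p below 0.05 and were lower, against 6.62% of all tested genes. DESeq2's Wald test called 2 of them lower (Aqp1 and Ttr), against 2.49% of all tested genes, and limma-voom called 7 lower (all except Enpp2 and Kl), against 2.22%. The median log2 fold change was -3.10 over the 9 genes and -0.02 over all tested genes.

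Gene by gene, the fitted log2 fold change of Ttr was -4.34 ± 1.19 (SE, n = 4 per group, edgeR adjusted p = 0.119). Kcne2 was at -3.63 ± 0.95 (SE, edgeR adjusted p = 0.105) and Aqp1 at -3.58 ± 0.77 (SE, edgeR adjusted p = 0.0504), just outside the threshold. Slc4a5, Kcnj13, Clic6 and Sostdc1 were between -3.12 and -2.82, with edgeR adjusted p from 0.120 to 0.157. Enpp2 was at -1.52 ± 0.64 (SE, edgeR adjusted p = 0.397) and Kl at -1.44 ± 0.59 (SE, edgeR adjusted p = 0.369). Without a filter on counts, Prlr was at -0.87 ± 0.76 (SE, edgeR adjusted p = 0.907). The errors were large beside the rest of the table, with a median SE of 0.85 over the 9 genes and 0.19 over all tested genes.

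Calls of single genes moved with the samples used. Aqp1 passed the threshold without T1-3 (edgeR adjusted p = 0.0140), and Kcnj13 passed it without T1-5 (edgeR adjusted p = 0.0390). Leaving out 1 IUGR sample moved the fold of 8 of the 9 genes by more than 1.5 times. Without T1-3, the log2 fold change was -5.27 for Ttr, -4.69 for Aqp1 and -2.31 for Enpp2. Without T1-5, it was -4.42 for Kcne2, -4.22 for Kcnj13, -3.76 for Slc4a5, -3.72 for Clic6 and -3.47 for Sostdc1. Leaving out a sham sample moved none of the 9 by as much. The scale also matters, since the difference of mean log2 CPM was -6.11 for Ttr, where each sample weighs the same, against the fitted -4.34 on group means of counts. All 9 genes had a negative fold change in each alternative that was run, with 20 or 21 alternatives per gene. The 200 genes called in the whole table became 53 without T1-1, 111 without T1-4, 105 without S3-1, 24 without S1-4, 60 without S3-4 and 131 without S1-6.

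**Figure D2:**
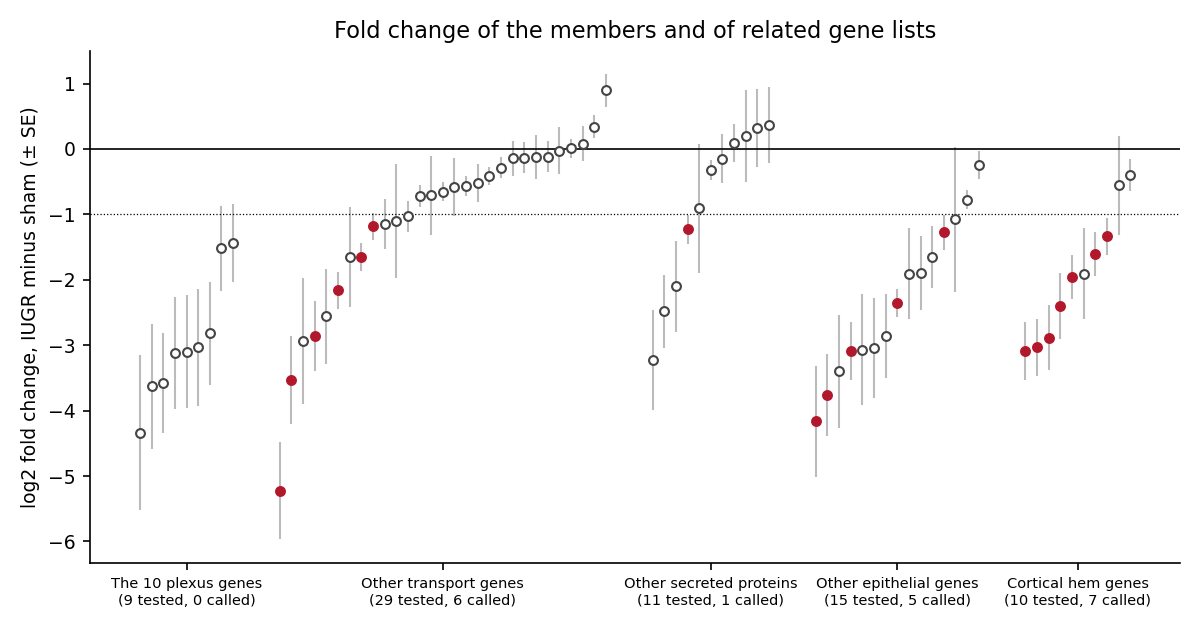
Fitted log2 fold change (IUGR minus sham, bars are ± 1 SE) of the 9 tested genes and of 4 lists of related genes, each point 1 gene; filled red points were called lower by edgeR and the dotted line marks a log2 fold change of -1. The 9 genes lie between -4.34 and -1.44 with long error bars and no call, while 6 of 29, 1 of 11, 5 of 15 and 7 of 10 genes were called in the other lists.

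In 7 of the 10 genes, every IUGR sample was below every sham sample, which was so in 5.06% of all tested genes. These were Ttr, Sostdc1, Clic6, Kcnj13, Kcne2, Slc4a5 and Aqp1. For each of them the exact two-sided permutation test on log2 CPM gave p = 0.0286, the smallest p that 70 splits of 4 against 4 samples allow. Groups without overlap always give this p, so it adds nothing to the count above. The exact p values were not adjusted for the 10 genes. The exact permutation p was 0.0571 for Enpp2 and for Kl and 0.629 for Prlr. Within the libraries with over 1% of counts in mt-Rnr1 (2 IUGR, 2 sham), the IUGR mean was between 7.46% (Kcne2) and 51.6% (Enpp2) of the sham mean over the 9 tested genes, with Ttr at 8.51%. Within the libraries under 1% (2 IUGR, 2 sham), it was between 2.97% (Ttr) and 42.5% (Kl). These values are a description of 2 samples against 2, and the 7 genes without overlap among all 8 samples cannot overlap within either set. A split by Xist leaves 1 sham sample among the high libraries and 1 IUGR sample among the low ones, too few for a comparison within either.

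The 4 IUGR samples fell into a lower and a higher pair. T1-1 and T1-4 were the lowest 2 of all 8 samples in 9 of the 10 genes. Their order cannot be read where both rest on few counts, as in Kcne2, Kcnj13 and Slc4a5. As a percent of the sham mean, the median over the 9 tested genes was 1.55% for T1-1, 0.723% for T1-4, 20.2% for T1-3 and 26.3% for T1-5. The range ran from 0.312% (Kcne2) to 25.1% (Kl) in T1-1, from 0.126% (Ttr) to 6.88% (Enpp2) in T1-4, from 11.96% (Ttr) to 78.7% (Enpp2) in T1-3 and from 7.35% (Ttr) to 56.1% (Kl) in T1-5. The lowest genes of a sample cannot be ranked where their counts are few, and in T1-4 the Poisson limits of Kcnj13 and Kcne2 include the percent of Ttr. T1-4 belonged to the libraries with a high share of mt-Rnr1 and T1-1 to those with a low share, and T1-4 but not T1-1 had a high level of Xist.

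The IUGR samples were spread widely for each tested gene. The highest IUGR sample was 94.7 times the lowest for Ttr (79.3 to 114 at the exact Poisson 95% limits of the lowest sample, which cover counting error only), 40.3 times for Clic6 (26.4 to 65.1), 21.8 times for Aqp1 (13.4 to 38.1) and 11.4 times for Enpp2 (9.77 to 13.5). For the other genes the lowest sample held 6 counts or fewer, so their order cannot be read. The ratio was 63.2 for Kcne2 (27.1 to 194.5), 37.9 for Slc4a5 (12.96 to 184) and 29.3 for Sostdc1 (13.5 to 79.9). On 1 count in T1-4, it was 116 for Kcnj13 (20.9 to 4598) and 21.1 for Kl (3.80 to 835). In the sham group, this ratio was between 1.44 and 2.803 for the same 9 genes. The higher pair did not keep one order. T1-3 was above T1-5 for Ttr (1.63-fold), Enpp2 (1.77-fold) and Aqp1 (2.41-fold), and below it for Kcnj13 (0.457 of T1-5), Kcne2 (0.702) and Clic6 (0.769), with Poisson 95% intervals that did not overlap. For Sostdc1, Slc4a5, Kl and Prlr these intervals overlapped, so the order of T1-3 and T1-5 was not read.

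**Figure D3:**
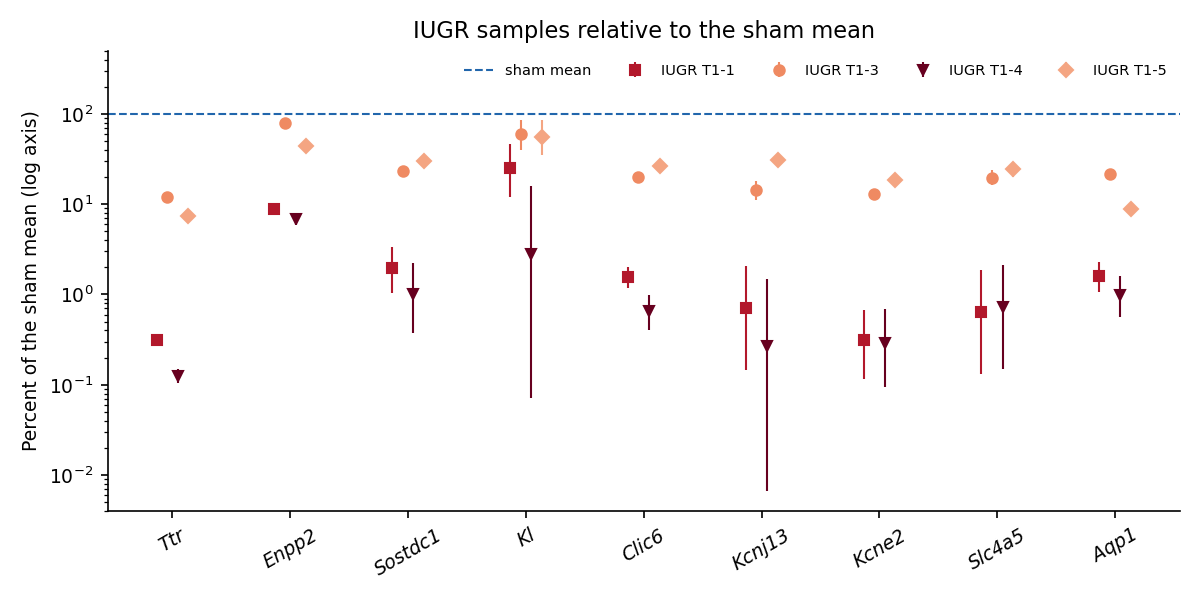
Level of the 9 tested genes in each IUGR sample as a percent of the sham mean, on a log axis, with exact Poisson 95% intervals that cover counting error only; the dashed line is the sham mean. T1-1 and T1-4 lie at medians of 1.55% and 0.723%, and T1-3 and T1-5 at medians of 20.2% and 26.3%.

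Other genes of the choroid plexus were grouped by role. Among 29 other transport genes tested, 6 were called lower, against 1.36% of all tested genes, and none higher (0 of 29). The median log2 fold change was -0.65, and 12 of the 29 did not overlap in the lower direction, against 5.06% of all tested genes. In the higher direction 1 of the 29 did not overlap, against 2.08%. This was Slc41a2, named after its values were seen, with 7.41 CPM in IUGR and 3.99 CPM in sham (log2 fold change 0.89, edgeR adjusted p = 0.132). Car12 and Car14 encode membrane carbonic anhydrases, which supply bicarbonate. Car12 fell from a mean of 95.6 CPM to 8.21 CPM (log2 fold change -3.53 ± 0.67, SE, edgeR adjusted p = 0.0305) and Car14 from 46.7 CPM to 10.4 CPM (-2.16 ± 0.28, SE, edgeR adjusted p = 0.00998). Slc4a2, an anion exchanger, fell by 1.65 and Slc12a4, a potassium chloride cotransporter, by 1.18 on the log2 scale, with edgeR adjusted p = 0.00998 and 0.0254. Trpv4, a cation channel that responds to osmotic and mechanical stimuli, fell from 3.29 CPM to 0.435 CPM (edgeR adjusted p = 0.0293).

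Slc16a8, a lactate transporter, was between 1.97 and 4.03 CPM in the sham samples. It had 0 counts in T1-1, T1-4 and T1-5, which allows up to 0.222, 0.250 and 0.225 CPM at 3 counts, and was at 0.243 CPM in T1-3 (edgeR adjusted p = 0.0106). Abundant genes of the list were among those not called. Slc12a2, the sodium potassium chloride cotransporter NKCC1, had 169 CPM and 225 CPM (edgeR adjusted p = 0.206), and Slc4a7, another bicarbonate cotransporter, had 147 CPM and 145 CPM (edgeR adjusted p = 1.00). Trpm3, a cation channel, had 66.3 CPM and 208 CPM with overlapping groups (edgeR adjusted p = 0.466). The 6 calls of this list became 3 without T1-1, 3 without S1-6, 3 without S3-4 and 2 without S1-4.

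Among 11 other secreted proteins tested, 1 was called lower, against 1.36% of all tested genes, and none higher (0 of 11), and the median log2 fold change was -0.32. Of the 11, 4 did not overlap in the lower direction, against 5.06% of all tested genes, and they were Igfbp2, Cst3, Wfikkn2 and 1500015O10Rik. The called gene was Igfbp2, a binding protein of insulin-like growth factors, which fell from 459 CPM to 196 CPM (-1.23 ± 0.22, SE, edgeR adjusted p = 0.0256). Igf2, a growth factor that meninges and vessels also make, had a mean of 178 CPM in IUGR and 138 CPM in sham (edgeR adjusted p = 1.00). Cst3 (cystatin C, a protease inhibitor) had a log2 fold change of -0.32. The last 2 of the 4 were named after their values were seen. Wfikkn2, a secreted protein that binds growth and differentiation factors, had 106 CPM in sham and 11.3 CPM in IUGR (-3.22 ± 0.76, SE, edgeR adjusted p = 0.0717), and 1500015O10Rik had 60.1 CPM and 10.7 CPM (-2.48 ± 0.56, SE, edgeR adjusted p = 0.0581). No gene of the list was called without T1-1, S3-4, S1-4 or S3-1 (0 in each), 2 were called without T1-3 and 3 without T1-5.

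Among 15 other genes of epithelial identity, 5 were called lower, against 1.36% of all tested genes, and none higher (0 of 15). Of the 15, 12 did not overlap in the lower direction, against 5.06% of all tested genes, and the median log2 fold change was -2.35, with all 15 negative. Folr1, the folate receptor that loads folate into the fluid, was at 127, 76.9, 107 and 64.2 CPM in sham samples S1-4, S1-6, S3-1 and S3-4 and at 0.370, 10.7, 0.250 and 9.16 CPM in IUGR samples T1-1, T1-3, T1-4 and T1-5 (-4.16 ± 0.85, SE, edgeR adjusted p = 0.0411). The same 2 IUGR samples were lowest as for the 9 genes above. Cldn2, a claudin of leaky tight junctions, fell from 13.3 CPM to 0.954 CPM (edgeR adjusted p = 0.0219). Foxj1, a regulator of motile cilia, fell from 99.0 CPM to 19.4 CPM (-2.35 ± 0.21, SE, edgeR adjusted p = 0.00662), and its 4 IUGR values were close to each other, between 14.9 and 26.1 CPM. Otx2, a transcription factor needed for choroid plexus development, fell from 101 CPM to 41.6 CPM (edgeR adjusted p = 0.0479). Htr2c, the serotonin receptor of the plexus and also of neurons, was at 57.4 to 101 CPM in the sham samples and at 1.26, 19.3, 0.998 and 139 CPM in IUGR samples T1-1, T1-3, T1-4 and T1-5. Of the IUGR samples, 3 were thus below every sham sample and T1-5 was above every sham sample, and the gene was not called (edgeR adjusted p = 0.992). The 5 calls became 2 without T1-1, 2 without S3-4, 2 without S3-1, 1 without S1-4 and 3 without S1-6.

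Molecules that act with the 10 genes in a pathway or a complex were also counted. Of 20 tested partners, none was called (0 of 20, with 1 called lower by DESeq2 and 1 by limma-voom), where 1.36% of all tested genes were called lower and 0.102% higher. At these shares a count of 0 in a list of this size is near the background, here and in the lists below. At an unadjusted p below 0.05, 4 of the 20 were lower, against 6.62%, and the median log2 fold change was -0.22. In 3 of the 20, every IUGR sample was below every sham sample, against 5.06% of all tested genes. Fgfr2, an FGF receptor, had a mean of 135 CPM in IUGR and 262 CPM in sham without overlap, at a log2 fold change of -0.96 that was inside the fold threshold (edgeR adjusted p = 0.0384). The others without overlap, named after their values were seen, were Fgfr3, another FGF receptor, with 49.1 CPM in IUGR and 134 CPM in sham (log2 fold change -1.45, edgeR adjusted p = 0.0712), and Socs2, an inhibitor of cytokine signals, with 70.5 CPM and 115 CPM (-0.71, edgeR adjusted p = 0.102). Jak2 (the kinase of the prolactin receptor), Lrp6 (a Wnt coreceptor to which Sostdc1 binds) and Slc5a3 (a myo-inositol transporter that works with Kcne2) had log2 fold changes of 0.04, -0.04 and -0.61. Of 18 tested genes of the same families, none was called by edgeR, DESeq2 or limma-voom (0 of 18, against 1.46% of all tested genes called in either direction by edgeR), 2 were lower at an unadjusted p below 0.05, and the median was -0.01. Clic4 and Clic1, of the family of Clic6, had log2 fold changes of 0.13 and -0.12, Slc4a3 of 0.04 and Enpp5 of -0.14. These are the 4 most abundant genes of the list. In 1 of the 18, every IUGR sample was below every sham sample, against 5.06% of all tested genes. This was Kcne1l, a relative of Kcne2 named after its values were seen, with 16.9 CPM in IUGR and 31.8 CPM in sham (log2 fold change -0.91, edgeR adjusted p = 0.0573). In this list 1 gene was called without S1-6.

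The genes with the most similar profile to the mean of the 10 genes, Prlr included, were sought among 11902 others with a mean count of at least 50. The measure was the root mean square difference of centred log2 CPM over the 8 samples. The nearest were Cfap52 (0.332), Krt18 (0.335), Ccdc170 (0.391), 4833427G06Rik (0.397) and Cldn1 (0.398), where the median over all candidates was 2.28. Among the 10 genes themselves, the distance to their own mean profile ran from 0.225 for Sostdc1 to 2.15 for Prlr, with Ttr at 1.43. Cfap52, a protein of motile cilia, was the only called gene of these, with 2.51 ± 2.49 CPM in IUGR against 21.6 ± 3.27 CPM in sham (SD, n = 4 each, edgeR adjusted p = 0.0479). Krt18, an epithelial keratin, fell short of the threshold at 50.7 CPM in sham and 6.08 CPM in IUGR (edgeR adjusted p = 0.0899).

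Markers of neighbouring cells were counted beside the 10 genes. Of 10 cortical hem genes, 7 were called lower against 1.36% of all tested genes, and all 10 were negative, with a median log2 fold change of -1.93. Lmx1a, which was called, and Msx1, which was not, are also expressed in the plexus and are counted both here and among the genes of epithelial identity. The hem list summed to 97.1 to 176 CPM in the IUGR samples, below the 283 to 529 CPM of the sham samples. Wnt3a, the Wnt signal on which growth of the hippocampus depends, was at a mean of 12.3 CPM in sham and fell by 3.03 ± 0.44 on the log2 scale (SE, edgeR adjusted p = 0.0114). The log2 fold changes of Lmx1a, Rspo2, Wnt2b, Rspo1, Wnt8b and Rspo3 were -3.09, -2.88, -2.40, -1.96, -1.61 and -1.34. Wnt5a was not called, at -0.40. The 7 hem calls became 3 without T1-1, 2 without T1-4, 1 without S1-4, 3 without S3-4 and 4 without S1-6, and 5 or 6 without any one of the others. With the Xist level as a covariate, or with the sham samples of 1 name prefix only, 0 genes of the hem list and of the 3 choroid plexus lists were called. In these fits the whole table held 0 calls with Xist, 0 with S1 and 2 with S3, so the counts say nothing of these lists. The fitted log2 fold changes were -5.77, -4.48 and -4.13 for Ttr and -4.28, -3.76 and -3.31 for Aqp1, in the same order.

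Meningeal fibroblast markers overlapped between the groups. Their summed level was 329 to 649 CPM in sham, and 406, 2843, 86.4 and 817 CPM in IUGR samples T1-1, T1-3, T1-4 and T1-5. None of 10 was called by edgeR, DESeq2 or limma-voom (0 of 10, against 1.46% of all tested genes by edgeR), 1 was lower and 0 higher at an unadjusted p below 0.05, 9 were positive, and the median log2 fold change was 1.20. T1-4 was thus lowest and T1-3 highest for these markers, with Col3a1, a fibrillar collagen, at 22.2 and 1293 CPM. Of neuron markers, none of 10 was called (0 of 10, against 0.102% of all tested genes called higher), with 2 called higher by DESeq2, against 0.613% of all tested genes, and 1 by limma-voom, against 0.175%. At an unadjusted p below 0.05, 6 of the 10 were higher, against 4.48% of all tested genes. Syt1, named after its values were seen, and Map2 were higher in every IUGR sample than in every sham sample (2 of 10, against 2.08% of all tested genes). Their log2 fold changes were 1.08 (edgeR adjusted p = 0.0628) and 0.27 (edgeR adjusted p = 0.409). All 10 neuron markers were positive with a median of 0.62, and the summed level was 3561 to 4535 CPM in sham and 4951 to 5360 CPM in IUGR samples. For markers of endothelium (9), erythroid cells (8), microglia (7), hippocampal primordium (11) and diencephalon (4), none was called (0 in each list, against 1.46% of all tested genes), and the medians were 0.51, 0.43, 0.30, -0.28 and -0.58. At an unadjusted p below 0.05, against 11.1% of all tested genes, 3 of 9, 0 of 8, 0 of 7, 2 of 11 and 1 of 4 of these markers differed. DESeq2 called none of them and limma-voom called 1, in the endothelial list. The endothelial list shares Slco1a4, an organic anion transporter, with the transport list above, where it is counted too, and it was the only endothelial marker without overlap (68.8 CPM in sham and 8.996 CPM in IUGR). The erythroid list likewise shares Slc4a1, an anion exchanger, with the family members counted above. In each list, no marker was at 0 in every sample of a group. The part of these cells in the levels of the 10 genes was not tested.

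**Figure D4:**
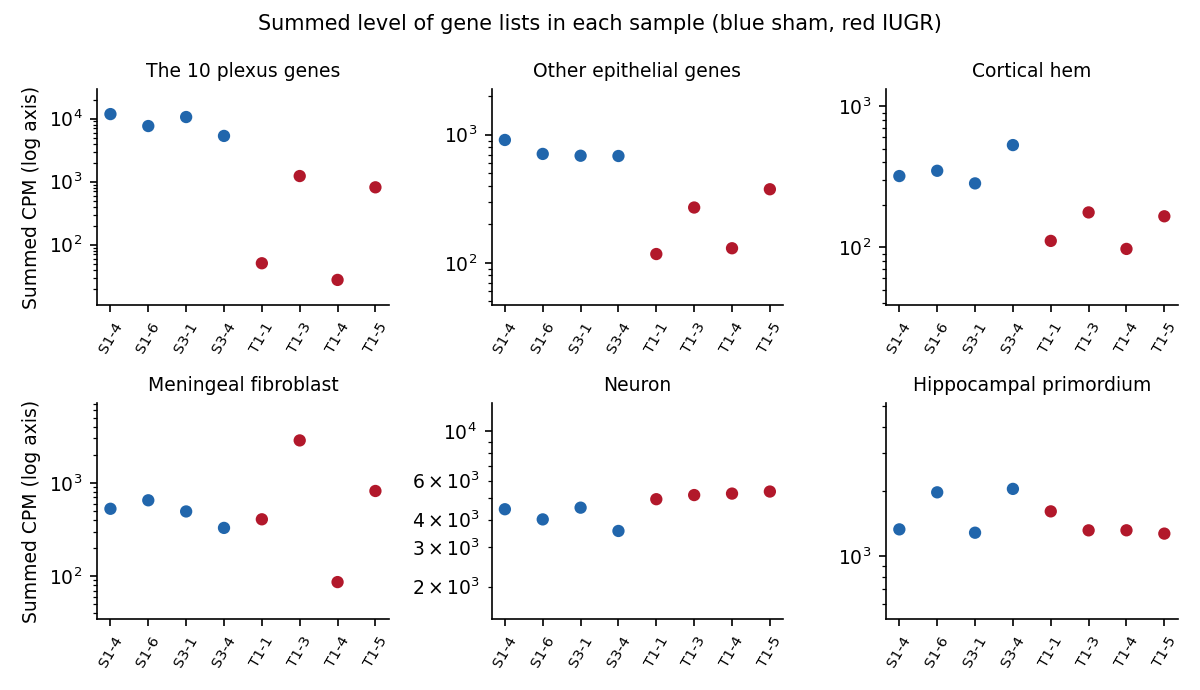
Summed CPM of the 10 choroid plexus genes and of 5 lists of other genes in each sample, on log axes that differ between panels, with sham in blue and IUGR in red. The sums of the 10 genes, the other epithelial genes and the hem genes were lower in every IUGR sample than in every sham sample. Single genes of each of these lists overlapped. Ttr made up 84.6% to 93.2% of the sum of the 10 genes in sham and 36.4% to 77.8% in IUGR. Meningeal markers ran from 86.4 to 2843 CPM within the IUGR group, and the hippocampal primordium list overlapped between the groups.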

How the data were processed

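Total RNA of E15.5 hippocampi was depleted of ribosomal RNA and read from 1 end (Illumina TruSeq Stranded Total RNA with Ribo-Zero Gold), with 1 library for each of 4 IUGR and 4 sham samples. The authors aligned reads to mm10, and the submitters' processing notes name Novoalign 2.8. The counting program, annotation release and strand setting are not given in the sources used here. The authors deposited raw counts per gene, without normalization, in 1 table of 16397 rows. Reads of an overlapping gene on the other strand could therefore enter a count.

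Of these rows, 16124 were matched by identifier to GENCODE M21, 273 were not matched, and 14564 were protein-coding. The 13710 protein-coding genes whose mean count reached 10 were tested in R 4.3.3 with edgeR 4.0.16 (TMM, quasi-likelihood test, Benjamini-Hochberg adjustment over all tested genes). The study's upper limit of 50000 on counts was left out, since the mean count of Ttr was 51566. Fold changes compare group means of counts, so they differ from differences of mean log2 CPM (prior count 2), on which exact two-sided permutation tests were run. Total counts were 11212632 to 16672463 per library, and precision also depended on the spread between samples. Libraries of a group differed by more than sampling noise. Data were simulated with 200 changed genes among 13710. The changed genes had a mean count of at least 50 and changes beyond the 2-fold threshold. In these data edgeR recovered 191 and made 7 false calls. DESeq2 1.42.0 recovered 193 with 18 false calls, and limma-voom (limma 3.58.1) recovered 191 with 8. This recovery does not apply to the 9 tested genes, whose median SE was 0.85 against 0.19 over all tested genes.

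The 10 genes, the gene lists and the tests were chosen with earlier results of these data known. The named genes are the 10 genes, the called genes and the 4 most abundant genes of each list, and the 5 genes of nearest profile. Some genes that this rule names are not reported here. In the transport list 29 genes and in the secreted list 11 genes were tested, and other names written in these lists are not analysed here. Alternatives covered normalization, filters, tests, single samples left out, sham name prefixes and Xist as a covariate. Library sizes from all rows, the split by mt-Rnr1, and the alternatives of the cortical hem list were added after seeing the data.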

Additional observations from a re-analysis of the deposited data

Results flagged for a closer look

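One value stood apart from its group. For Slc4a5, sham sample S3-1 lay below the other sham samples (15.6 CPM against 38.6 to 43.8 CPM), and its gap to the nearest sample was 0.875 of the range of log2 CPM. This exceeded the 95% critical value for 4 samples. It was 1 of 20 groups examined (10 genes in 2 groups), and chance alone gives about 1 such group in 20. S3-1 was also the lowest sham sample for Sostdc1, Kl and Clic6, at 32.0, 1.70 and 162 CPM, but not for Ttr, where it was at 9862 CPM.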

How the results depend on the processing

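All 9 tested genes kept a lower level in IUGR in each alternative. The number of genes called in the whole table was 200, and it was 426 with DESeq2, 329 with limma-voom, 95 with a mean count of at least 50, 0 with the S1 sham samples only, 2 with the S3 sham samples only, 0 with Xist as a covariate, and 24 to 298 when 1 sample was left out (53 without T1-1, 111 without T1-4, 105 without S3-1, 60 without S3-4, 131 without S1-6). Of the 10 genes, 0 were called in edgeR, 2 with DESeq2, 7 with limma-voom, 1 without a filter on counts (Aqp1, edgeR adjusted p = 0.0446), 1 with library sizes from all rows (Aqp1, edgeR adjusted p = 0.0487; added after seeing the data), and 0 to 1 when 1 sample was left out. The number without overlap was 7 to 9 when 1 sample was left out.

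For the lists of other transport, secreted and identity genes, the calls of 6, 1 and 5 became 0, 0 and 0 with the S1 or the S3 sham samples only and with Xist as a covariate. They ran from 2 to 7, 0 to 3 and 1 to 5 when 1 sample was left out. With DESeq2 the secreted list had 4 and the identity list 8 calls, with limma-voom 3 and 9, and with a mean count of at least 50 the identity list had 3. Of the partners, 1 was called by adjusted p alone, by DESeq2 and by limma-voom, and 0 to 0 when 1 sample was left out; of the relatives, 0 to 1. The cortical hem list had 4 calls with upper-quartile normalization, 4 with a mean count of at least 50, 4 with all rows, 0 with either sham prefix or the Xist covariate, and 1 to 6 when 1 sample was left out. The causes were not tested, but the prefix fits had 2 sham samples. No paired analysis was possible because the replicate numbers were assigned here in order of deposit, and no source ties a number in the sample names to a shared litter, animal or batch. Low counts limit Prlr, Kl and the lowest values of Kcnj13 and Slc4a5.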
